A study of Mus musculus with 6 samples.

Results

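Chemokines and their receptors were examined as a family in mouse liver and liver tumour RNA on 2-colour microarrays. A probe belonged to the family when its description held the word chemokine, or when its current gene symbol began with Ccl, Cxcl, Ccr, Cxcr, Cx3c or Xcr. This rule uses names and no measured value. It gave 61 probes of the 20868 non-control probes on the array, which stood for 56 gene symbols and 4 cDNAs without a current symbol. Of the 61 probes, 19 matched by both word and symbol, 34 by symbol alone and 8 by the word alone.

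The RNA came from mice of the C3H/HeNCrlBR(C3He) background at 39 weeks of age, all given the liver tumour initiator diethylnitrosamine (DEN). The groups were liver tumour of wild-type (WT) mice given DEN and phenobarbital (PB), liver of CAR-knockout (CAR-KO) mice given DEN and PB, liver of CAR-KO mice given DEN alone, and liver of WT mice given DEN and PB. PB is a tumour promoter that was given in the drinking water, and Nr1i3 encodes CAR, the nuclear receptor through which PB acts on hepatocytes. The 6 arrays formed 3 dye-swapped pairs, which set WT tumour against CAR-KO liver, CAR-KO liver against WT liver (both after DEN and PB), and CAR-KO liver after DEN and PB against CAR-KO liver after DEN alone. The labels do not say how the knockout was made, how many animals each RNA held, or whether the extracts of a pair's arrays were the same, so the p-values rest on a spread between arrays that may be technical. All 3 comparisons contain the CAR-KO RNA from DEN and PB treatment.

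Chemokines are small secreted proteins that guide leukocytes along a gradient. They are named by the spacing of their first cysteines (CC, CXC, CX3C, XC), and act on receptors of 7 membrane passes that couple to inhibitory G proteins. In the liver, hepatocytes, sinusoidal endothelium, stellate cells and Kupffer cells all can release them, and interferon-gamma, tumour necrosis factor and NF-kB signalling are textbook inducers of several members.

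The local background, as a median per channel, ran from 53 to 62 on 5 arrays and from 288 to 299 on the second array of the tumour pair. Between 84.44% and 98.67% of all non-control spots were well above background per channel, the scanner software's call that a spot exceeds its surroundings. Nr1i3 had a fitted log2 ratio of -0.79 ± 0.16 (limma's SE from the fit of all 6 arrays) in CAR-KO over WT liver. It had -1.08 and -0.49 on the single arrays, and was not called (limma adjusted p = 0.412). It was called higher in WT tumour than in CAR-KO liver, with log2 ratios of 1.71 and 1.90 (fitted 1.81 ± 0.16, adjusted p = 0.00194). Whether its probe falls inside the deleted stretch is not given, so these values are no check of the labels. The 5 hepatocyte markers measured here (Apoa1, Apoa2, Ttr, Hnf4a and Ass1) were well above background in all 12 channels.

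Promoters of called members are shown, with motifs chosen because interferon-gamma and NF-kB signalling are textbook inducers of several chemokines. Whether either signal changed the chemokines here was not tested. RefSeq's promoter table (build GRCm38.p6) held 43 of the 56 gene symbols and 3 of the 4 members called below: Cxcl10 (chr5:92348890-92349139, minus strand), Cxcl9 (chr5:92328080-92328329, minus strand) and Cxcl12 (chr6:117168285-117168534, plus strand). The 250 bases before each start are given on the gene's strand, 5′ to 3′, with matches to the interferon-stimulated response element (GAAANNGAAA) or to the NF-kB consensus in capitals.
Cxcl10: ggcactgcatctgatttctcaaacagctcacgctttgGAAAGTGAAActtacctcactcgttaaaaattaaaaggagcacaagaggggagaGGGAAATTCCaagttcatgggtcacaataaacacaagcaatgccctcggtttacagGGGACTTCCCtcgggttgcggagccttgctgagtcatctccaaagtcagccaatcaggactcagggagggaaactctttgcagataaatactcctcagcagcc
Cxcl9: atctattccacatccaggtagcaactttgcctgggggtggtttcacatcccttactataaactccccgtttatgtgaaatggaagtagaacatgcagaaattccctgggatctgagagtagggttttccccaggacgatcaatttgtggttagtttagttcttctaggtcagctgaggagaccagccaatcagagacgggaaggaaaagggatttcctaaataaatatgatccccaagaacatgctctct
Cxcl12: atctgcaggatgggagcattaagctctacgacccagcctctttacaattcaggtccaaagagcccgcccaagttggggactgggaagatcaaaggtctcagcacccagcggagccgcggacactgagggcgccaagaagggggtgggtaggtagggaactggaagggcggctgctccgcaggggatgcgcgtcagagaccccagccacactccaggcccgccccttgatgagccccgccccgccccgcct
The Cxcl10 window held 1 match to GAAANNGAAA, 213 to 204 bases before the start, and 2 matches to the NF-kB consensus, 159 to 150 and 103 to 94 bases before it. The Cxcl9 and Cxcl12 windows held neither, and none of the 3 held TTCNNNGAA, the gamma-activated site. On either strand, GAAANNGAAA stood in 3 of 49 promoter entries of members and in 2.98% of all 32851 entries, the NF-kB consensus in 9 of 49 and in 3.90%, and TTCNNNGAA in 4 of 49 and in 7.02%. A match is a stretch of letters, not evidence of binding.

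Of the 61 members, 37 were well above background in all 12 channels (6 arrays with 2 channels each), 19 in 6 to 11 channels and 5 in 1 to 5 channels. Per channel, between 44 and 61 members were well above background. No member was saturated or carried an outlier flag. Testing required a channel well above background on 2 or more arrays, which 59 members met. Ccl11 and Ccl22 were well above background in 1 of 12 channels and were not tested. By class, 12 of 20 CC ligand probes, 7 of 11 CXC ligand probes and 8 of 11 CC receptor probes were well above background in all 12 channels. Among CXC receptors it was 1 of 6 (Cxcr4), and neither Cx3cl1 probe reached it.

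In WT tumour relative to CAR-KO liver, 3 chemokines were called higher and 1 was called lower. The RNAs of this comparison differ in both tissue and genotype, which cannot be told apart here. Cxcl10, Cxcl9 and Ccl2 were 2.85-fold, 2.03-fold and 1.95-fold higher in WT tumour, and Cxcl12 was 1.93-fold lower. In bulk RNA, fewer cells of a type and less RNA per cell cannot be told apart. The rest of the 59 members tested were not called. Thus 3 of 59 members were called higher (5.08%), against 2.53% of all 20744 probes tested, and 1 of 59 called lower (1.69%), against 0.839%. At an unadjusted p under 0.05 the share was 23.7% of the members (14 of 59) and 23.4% of all probes. The members' median log2 ratio was 0.0018 and that of all probes tested was -0.0057. The arrays of the pair agreed in sign for 27 of 59 members (45.8%) and for 59.1% of all probes. With median centring in place of loess normalization, 4 members were called higher and 7 lower, beside 2370 and 1763 of all probes.

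**Figure D1:**
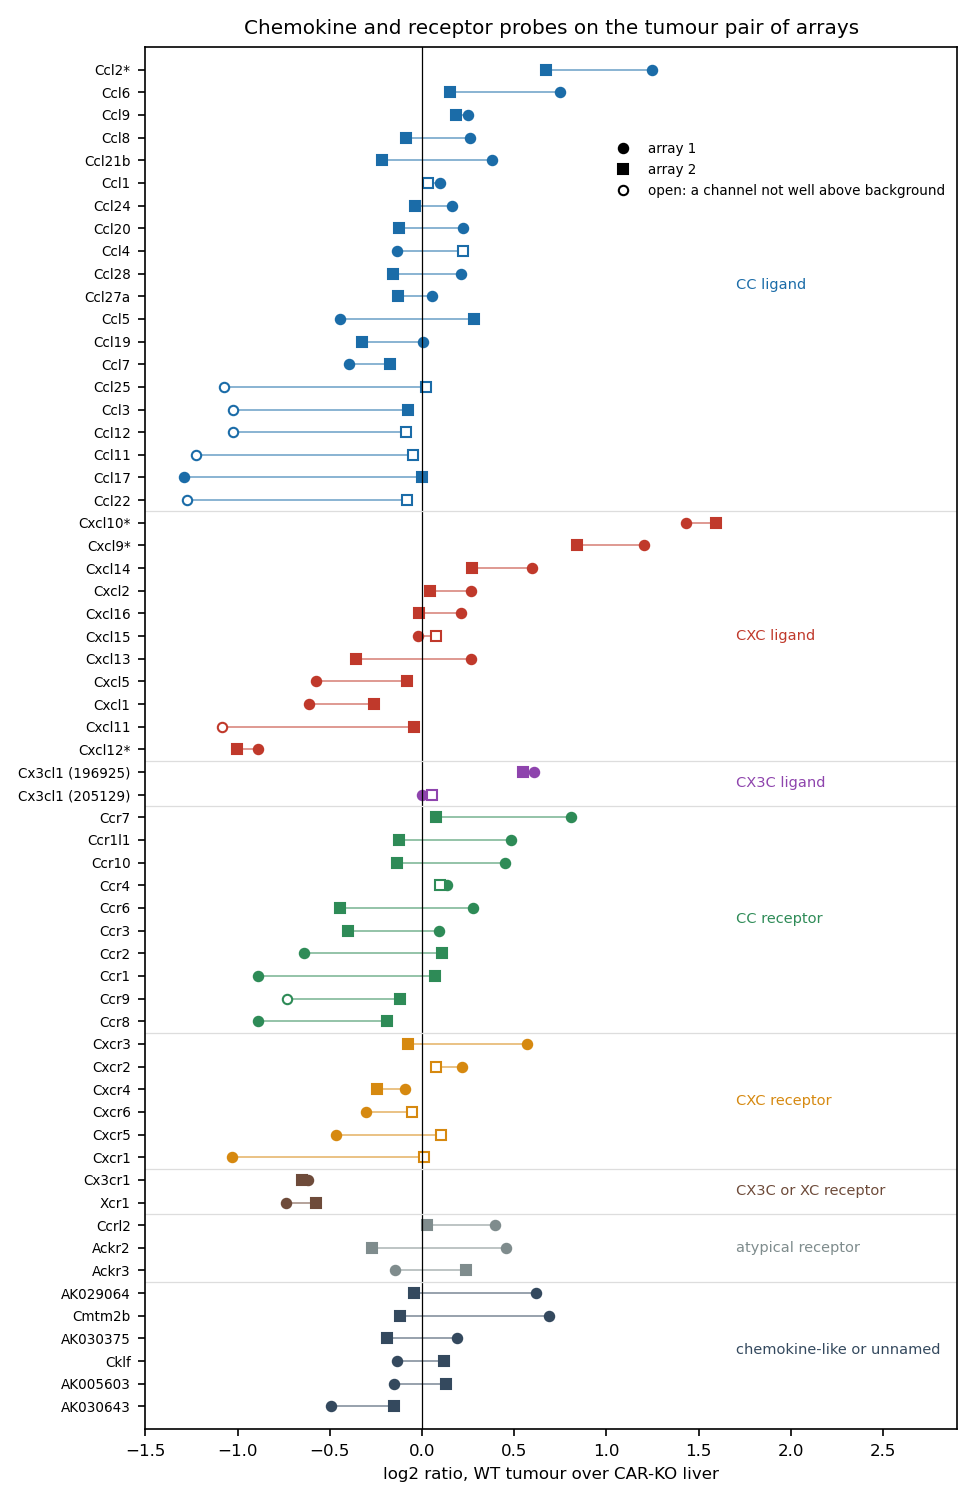
Log2 ratio of WT tumour over CAR-KO liver for 60 member probes, by class, on array 1 (circles) and array 2 (squares) of the pair. Open symbols mark arrays with a channel not well above background, and asterisks mark the 4 members with a limma adjusted p under 0.05. Cxcl10, Cxcl9 and Ccl2 lay right of 0 and Cxcl12 left of 0 on both arrays, while several dim CC ligands lay near -1 on array 1 and near 0 on array 2.

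Among the CXC ligands, Cxcl10 and Cxcl9 belong to the interferon-induced group that attracts activated T and NK cells through Cxcr3. Cxcl10 had signals (background-corrected and normalized intensities) of 216 and 328 in WT tumour, against 80.4 and 109 in CAR-KO liver on the same arrays. Tumour was the higher channel on both arrays. Both tumour signals also exceeded both CAR-KO signals. However, signals were normalized within arrays only and the second tumour array came from another scanner, so overlap across arrays carries little weight. The log2 ratios were 1.43 and 1.59, with a fitted value of 1.51 ± 0.21 (SE; limma adjusted p = 0.0106). Cxcl9 had signals of 174 and 191 in WT tumour and 75.5 and 107 in CAR-KO liver. Here too the groups did not overlap across arrays, with the same limit. Its log2 ratios were 1.20 and 0.84, with a fitted value of 1.02 ± 0.16 (adjusted p = 0.0167). The third ligand of the group, Cxcl11, was well above background in 7 of 12 channels and had log2 ratios of -1.08 and -0.05 (fitted -0.56 ± 0.17, adjusted p = 0.118). Their receptor Cxcr3 had log2 ratios of 0.57 and -0.08, so its arrays disagreed in sign.

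Cxcl12, a stromal chemokine that retains cells bearing Cxcr4, had signals of 945 and 2471 in WT tumour and 1749 and 4955 in CAR-KO liver. Tumour was the lower channel on each array, while the signals of the arrays differed so much that the groups overlapped when taken across arrays. The log2 ratios were -0.89 and -1.0, with a fitted value of -0.95 ± 0.15 (adjusted p = 0.020). With median centring the value was -0.35 (adjusted p = 0.162). Its receptor Cxcr4 had log2 ratios of -0.09 and -0.24, and its scavenging receptor Ackr3 had -0.15 and 0.24.

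The neutrophil-attracting CXC ligands did not pass the test. Cxcl1 had log2 ratios of -0.61 and -0.26 (fitted -0.43 ± 0.17, adjusted p = 0.183) and Cxcl5 of -0.57 and -0.08. Cxcl2 had 0.27 and 0.04 and Cxcl15 lay within 0.1 of 0 on both arrays. Of their receptors, Cxcr2 had 0.22 and 0.07, and Cxcr1, well above background in 6 of 12 channels, had -1.03 and 0.01. Cxcl14, a ligand of many epithelia, had 0.60 and 0.27. The B-cell chemokine Cxcl13 and the membrane-bound Cxcl16 had fitted values of -0.05 and 0.10, and their receptors Cxcr5 and Cxcr6 both had -0.18.

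Among the CC ligands, Ccl2, which draws monocytes through Ccr2, had signals of 199 and 223 in WT tumour and 83.9 and 140 in CAR-KO liver. Tumour was higher on both arrays. The signals did not overlap across arrays either, with the limit named for Cxcl10. The log2 ratios were 1.25 and 0.67, with a fitted value of 0.96 ± 0.16 (adjusted p = 0.0210). The genes that follow Ccl2 on chromosome 11 in the RefSeq gene table (GRCm38.p6) are Ccl7, Ccl11, Ccl12, Ccl8 and Ccl1, of which Ccl11 was not tested and the others were not called. Ccl7, a second Ccr2 ligand, had -0.40 and -0.17. Ccl8 and Ccl1 had fitted values of 0.09 and 0.06. Ccr2 itself had -0.64 and 0.11, so its arrays disagreed.

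The myeloid- and T-cell-attracting CC ligands that follow were not called. Ccl6, a myeloid chemokine of rodents, had 0.75 and 0.15 (fitted 0.45 ± 0.27, adjusted p = 0.351), and Ccl9, its neighbour, had 0.25 and 0.19. Ccl5 had -0.44 and 0.28, Ccl4 had -0.14 and 0.22, and Ccl3, well above background in 10 of 12 channels, had -1.02 and -0.07. Ccr1, a receptor of several of them, had -0.89 and 0.07, and Ccr1l1 had 0.48 and -0.12. Of these ligands, Ccl6 and Ccl9 were positive on both arrays.

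None of the homeostatic CC ligands was called. Ccl19 and Ccl21b, which guide cells bearing Ccr7, had fitted values of -0.16 and 0.08, and Ccr7 had 0.81 and 0.08 (fitted 0.44 ± 0.19, adjusted p = 0.222). The Ccl21b probe may also read the near-identical Ccl21a and Ccl21c, and the Ccl27a probe its copy Ccl27b. Fitted values were 0.05 for Ccl20 and -0.08 for its receptor Ccr6, 0.06 for Ccl24 and -0.16 for the eotaxin receptor Ccr3. They were -0.04, 0.03 and 0.16 for Ccl27a, Ccl28 and their receptor Ccr10. Each of these genes from Ccl20 to Ccr10 was positive on tumour array 1 and negative on tumour array 2, so their arrays disagreed. Ccr8, the receptor of Ccl1, had log2 ratios of -0.89 and -0.19 (fitted -0.54 ± 0.23, adjusted p = 0.211). On the single arrays Ccr9 had -0.73 and -0.12, and Ccr4 had 0.13 and 0.10.

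The weakest CC ligands depended on the array. Ccl12, Ccl25, Ccl11 and Ccl22 were not well above background in tumour on either array. On array 1 their signals ran from 63.2 to 68.4 in WT tumour and from 134 to 156 in CAR-KO liver, where all 4 were well above background. On array 2 the CAR-KO channel was not well above background for any of them either, so no fold over both arrays is given. There all 4 log2 ratios lay between -0.08 and 0.02. Ccl17, a ligand of Ccr4 like Ccl22, had -1.29 and 0.00. The 22 tested members well above background in fewer than 12 channels had a median log2 ratio of -0.39 on array 1 and 0.03 on array 2, and all such probes had -0.27 and 0.02. These 12 channels include the tumour channels, so a low tumour signal itself can place a probe in that class. On array 1 all 61 members were well above background in the CAR-KO channel (Cy3) and 54 in the tumour channel (Cy5), and on array 2 it was 53 in the tumour channel (Cy3) and 48 in the CAR-KO channel (Cy5). The part of dye or scanner in these values was not tested.

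Leaving out single arrays kept the sign of all 4 called members and ended calls of 3. The sign could change only in fits without a tumour array, since the others keep the tumour estimate as it was. Cxcl10 was called in all 6 such fits, with adjusted p between 0.00033 and 0.0341. Cxcl9 was called in 4, and had adjusted p = 0.0654 without either phenobarbital array. Ccl2 was called in 1 of the 6, without tumour array 2, and had adjusted p = 0.0772 without either phenobarbital array, 0.0508 without either knockout array and 0.0601 without tumour array 1. Cxcl12 was also called in 1, without tumour array 2, and had adjusted p = 0.0743, 0.0546 and 0.0607 in the same order. A fit without 1 tumour array leaves 1 array of that pair. Without tumour array 2, many more members and many more of all probes were called.

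Cx3cl1, the membrane-tethered fractalkine, was read by 2 probes that disagreed. The first had log2 ratios of 0.61 and 0.55 (fitted 0.58 ± 0.16, adjusted p = 0.108) and was well above background in 9 of 12 channels. The second was well above background in 3 channels and had a fitted value of 0.03 ± 0.15 (adjusted p = 0.936). Its receptor Cx3cr1, found on monocytes and macrophages, had signals of 185 and 400 in WT tumour and 284 and 628 in CAR-KO liver, with log2 ratios of -0.62 and -0.65 (fitted -0.63 ± 0.16, adjusted p = 0.0799). Xcr1, the receptor of cross-presenting dendritic cells for Xcl1, had signals of 438 and 1406 in WT tumour and 731 and 2091 in CAR-KO liver. Its log2 ratios were -0.74 and -0.57 (fitted -0.66 ± 0.16, adjusted p = 0.0793). Both receptors were lower in tumour on each array, and neither passed the test. In the RefSeq table Xcr1 lies on chromosome 9 between Cxcr6 and Ccr1, and the fitted values along the row Cxcr6, Xcr1, Ccr1, Ccr1l1, Ccr3 and Ccr2 were -0.18, -0.66, -0.41, 0.18, -0.16 and -0.26.

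No receptor of the atypical kind, which bind ligands without classical chemokine signalling, was called. Ackr2, Ackr3 and Ccrl2 had fitted values of 0.09, 0.05 and 0.21, with a smallest adjusted p of 0.427. The chemokine-like factor Cklf had -0.01 and Cmtm2b, of the same family, 0.29. Of the cDNAs without a symbol, AK030643 is described as a homologue of a chemokine receptor, AK029064 as a putative chemokine receptor, AK030375 as receptor-like and AK005603 as a chemokine-like factor variant. Their fitted values lay between -0.32 and 0.29.

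**Figure D2:**
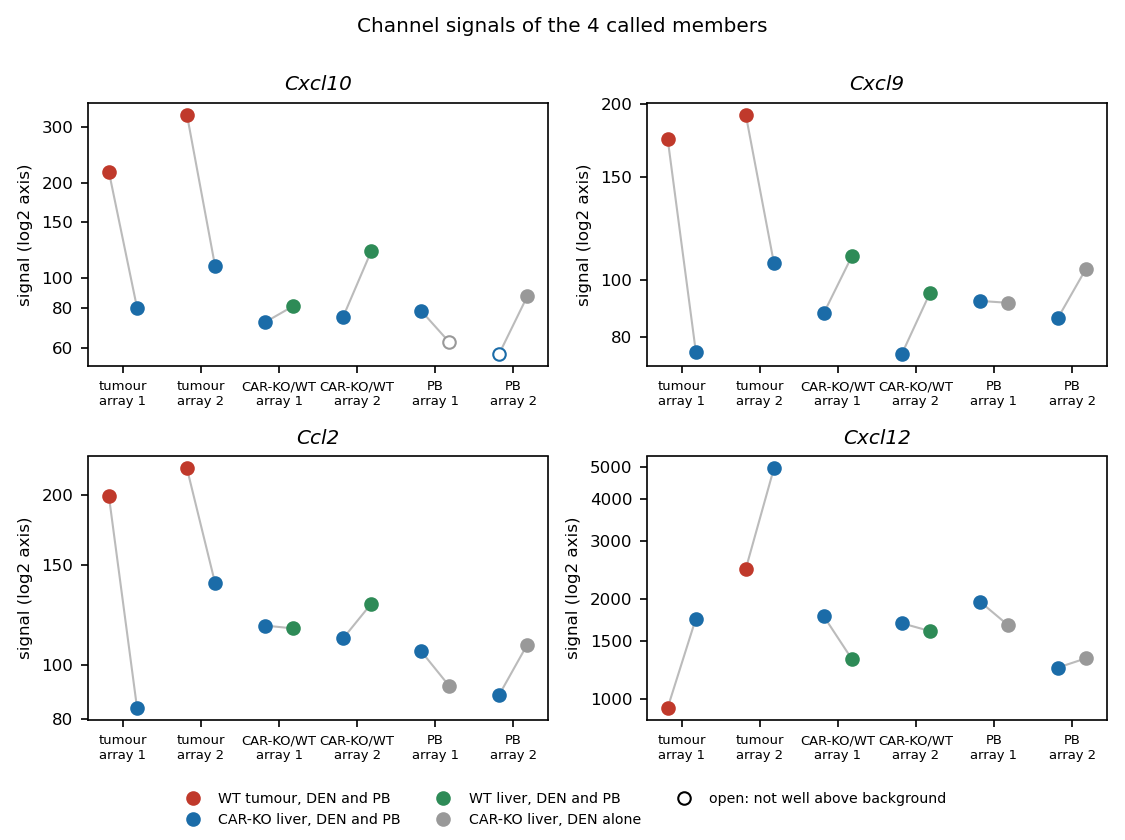
Signal (log2 axis) of the 4 members called in the tumour comparison in both channels of all 6 arrays, coloured by RNA, with a grey line joining the channels of an array and an open symbol where a channel was not well above background. For Cxcl10, tumour signals of 216 and 328 stand above every liver signal, though signals were normalized within arrays only. For Cxcl12 the tumour channel is the lower one on both tumour arrays.

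The RNA of WT tumour and WT liver never met on 1 array, so their difference was taken indirectly, as the sum of the tumour and knockout comparisons over 4 arrays. No member was called by limma in either direction, and neither was any of the 20743 probes tested (0% higher and 0% lower). At an unadjusted p under 0.05 there were 8 of 59 members (13.6%) and 8.37% of all probes. Cxcl10 had a fitted log2 ratio of 1.08 (95% interval 0.40 to 1.76, adjusted p = 0.435), Ccl2 of 0.87 (0.35 to 1.39, adjusted p = 0.394) and Cxcl9 of 0.69 (0.17 to 1.21, adjusted p = 0.552). Ccr7 had 0.55. Ccl3, not well above background in tumour on array 1, was lowest at -0.86 (-1.45 to -0.27, adjusted p = 0.486). Also on the lower side stood Cxcl12 at -0.69 (-1.20 to -0.19, adjusted p = 0.542), Cx3cr1 at -0.65, Xcr1 at -0.65, Cxcl1 at -0.44, Cxcr4 at -0.37 and Ccl7 at -0.27. With median centring the Cxcl12 value was 0.02. The members' median was -0.021 and that of all probes was -0.0073.

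**Figure D3:**
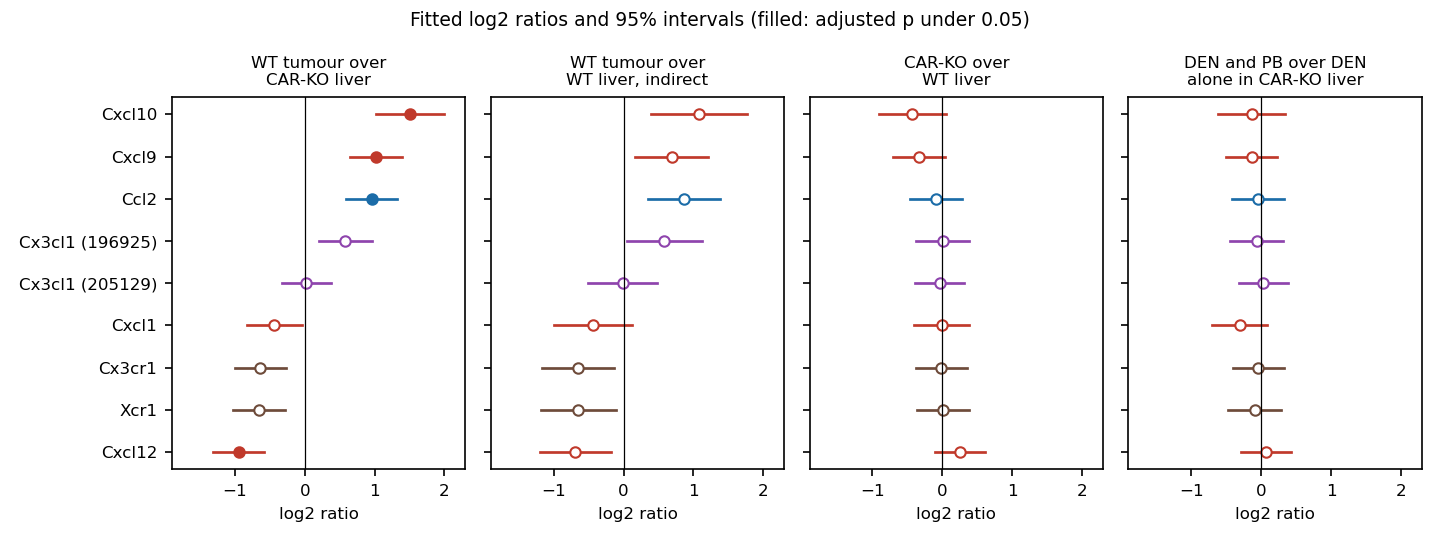
Fitted log2 ratio (points) with its 95% interval (lines) for 9 member probes in the tumour, indirect, knockout and phenobarbital comparisons, filled where the limma adjusted p was under 0.05. The filled points are Cxcl10, Cxcl9, Ccl2 and Cxcl12 in WT tumour over CAR-KO liver, and the knockout and phenobarbital values lie between -0.43 and 0.25.

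In CAR-KO over WT liver no member was called. The array as a whole gave 2 probes called higher (0.00964% of 20743) and 19 called lower (0.0916%). At an unadjusted p under 0.05 there was 1 of 59 members (1.69%), Ccl9, against 471 of all probes (2.27%). The members' median log2 ratio was 0.0063 beside 0.015 for all probes, and every one of the 59 tested lay within 0.5 of 0 on the log2 scale, as did 98.5% of all probes. Ccl9 had signals of 862 and 757 in CAR-KO liver and 1057 and 1053 in WT liver. CAR-KO liver was lower on both arrays, and without overlap across arrays, though signals were normalized within arrays only. The log2 ratios were -0.29 and -0.48 (fitted -0.39 ± 0.15, limma unadjusted p = 0.037, adjusted p = 0.999991).

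None of the interferon-induced ligands passed the test in CAR-KO liver. Cxcl10 had signals of 72.2 and 75.1 in CAR-KO liver and 81.2 and 121 in WT liver, with log2 ratios of -0.17 and -0.69 (fitted -0.43, 95% interval -0.91 to 0.05). Cxcl9 had log2 ratios of -0.32 and -0.34 (fitted -0.33, interval -0.70 to 0.03), and Cxcl11 had -0.21 and 0.34 (fitted 0.07, interval -0.32 to 0.46). Ccl6 had -0.63 and -0.06, Ccl3 had -0.49 and -0.13, and Cxcl14 had -0.36 and -0.05. Ccl2 had 0.02 and -0.20 (fitted -0.09, interval -0.46 to 0.27). The positive end held Cxcl12 with 0.43 and 0.08 (fitted 0.25, interval -0.11 to 0.61), Ccl21b with 0.34 and 0.02, Ccl5 with 0.12 and 0.16, Ccr1 with 0.08 and 0.19, and Ccr9 with 0.20 and 0.02. The arrays of the pair agreed in sign for 21 of 59 members (35.6%) and for 42.9% of all probes.

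In CAR-KO liver, PB after DEN was compared with DEN alone. No member was called, nor was any of 20742 probes (0% higher and 0% lower). No member reached an unadjusted p under 0.05, which 565 of all probes (2.72%) did. The members' median log2 ratio was -0.019, that of all probes -0.0075, and the fitted values ran from -0.34 to 0.30. The lowest was Ccl20, a ligand for Ccr6 on lymphocytes and dendritic cells, with -0.64 and -0.04. The members named next were well above background in every channel of the pair, with the same sign on both arrays. Cxcl1 followed with -0.18 and -0.43, Cxcr3 with -0.27 and -0.08, Ccr8 with -0.06 and -0.20, Ccl8 with -0.08 and -0.15 and Cxcl5 with -0.06 and -0.10. On the positive side of this selection were Ccl9 with 0.38 and 0.13, Cxcl16 with 0.22 and 0.27 and Ccl27a with 0.14 and 0.20. Ccr6 had 0.20 and 0.09, Ccl7 had 0.01 and 0.24, and Cklf had 0.09 and 0.10. Cxcr6, Cxcr5 and Cxcr2 were not well above background in every channel of the pair. They had fitted values of 0.30, 0.27 and 0.21, and 2 of the 6 CXC receptors had negative values. The genes called in tumour had fitted values of -0.14 (Cxcl10), -0.13 (Cxcl9), -0.05 (Ccl2) and 0.07 (Cxcl12). The arrays agreed in sign for 23 of 59 members (39.0%) and for 36.8% of all probes.

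**Figure D4:**
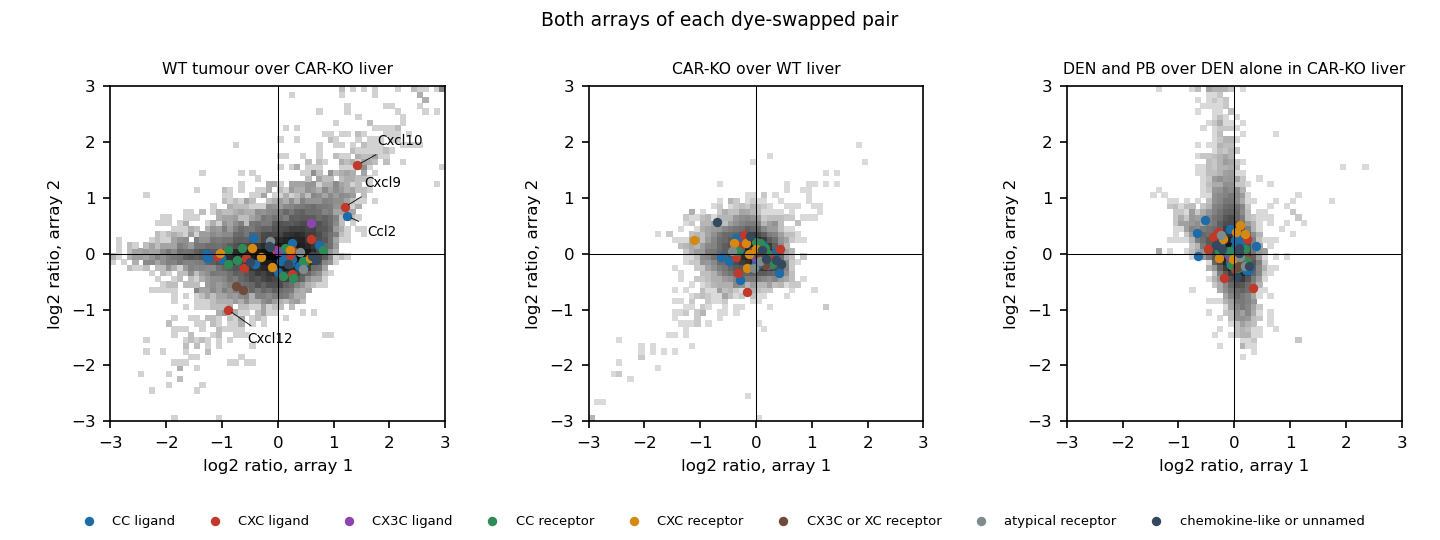
Log2 ratio on array 1 (horizontal) against array 2 (vertical) of each dye-swapped pair, with members coloured by class over all tested probes in grey (darker for more probes; values beyond 3 drawn at the edge). In the tumour pair Cxcl10, Cxcl9 and Ccl2 stand apart at the upper right and Cxcl12 at the lower left, and in the knockout pair Cxcr3 (-1.11 and 0.25) and AK030643 (-0.71 and 0.56) lie off the centre with opposite signs on the arrays.

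Genes that induce or carry chemokine signals were taken from 4 lists, with the brightest tested probe of each gene. In WT tumour over CAR-KO liver, 2 of the 20 measured interferon-gamma response genes rose, none fell, and 15 had positive values, with a median of 0.16. Of all probes tested, 2.53% were called higher, 0.839% were called lower and 49.4% had positive values. Gbp4, an interferon-induced GTPase, had log2 ratios of 1.03 and 1.41 (fitted 1.22 ± 0.18, adjusted p = 0.0155), and Irgm1, another, had 0.99 and 0.90 (fitted 0.94 ± 0.17, adjusted p = 0.0290). Of 32 measured inducers of chemokine transcription, 2 rose and 1 fell. These were Ifngr1, the ligand-binding chain of the interferon-gamma receptor, with 1.84 and 1.75 (fitted 1.80 ± 0.16, adjusted p = 0.00192), the AP-1 subunit Jun with 1.03 and 1.92 (fitted 1.47 ± 0.23, adjusted p = 0.0182), and the cytokine Il6 with -0.95 and -0.60 (fitted -0.78 ± 0.15, adjusted p = 0.0425). None of 28 genes of receptor signalling and none of 12 proteases and glycan genes that act on chemokines passed, with medians of -0.07 and -0.10. Each of the 5 called genes kept its sign with median centring. Leaving out arrays did not end the call of Ifngr1 in any of 6 fits, while Gbp4 and Jun had adjusted p = 0.0556 and 0.0573 without either phenobarbital array. Il6 had 0.115 without either phenobarbital array and 0.107 without either knockout array. Irgm1 had 0.0839 and 0.0660 in the same fits and 0.133 without tumour array 1. In CAR-KO over WT liver no gene of the 4 lists was called, and Ifngr1, Jun, Gbp4, Irgm1 and Il6 had fitted values of -0.51, -0.42, -0.36, -0.47 and -0.22.

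**Figure D5:**
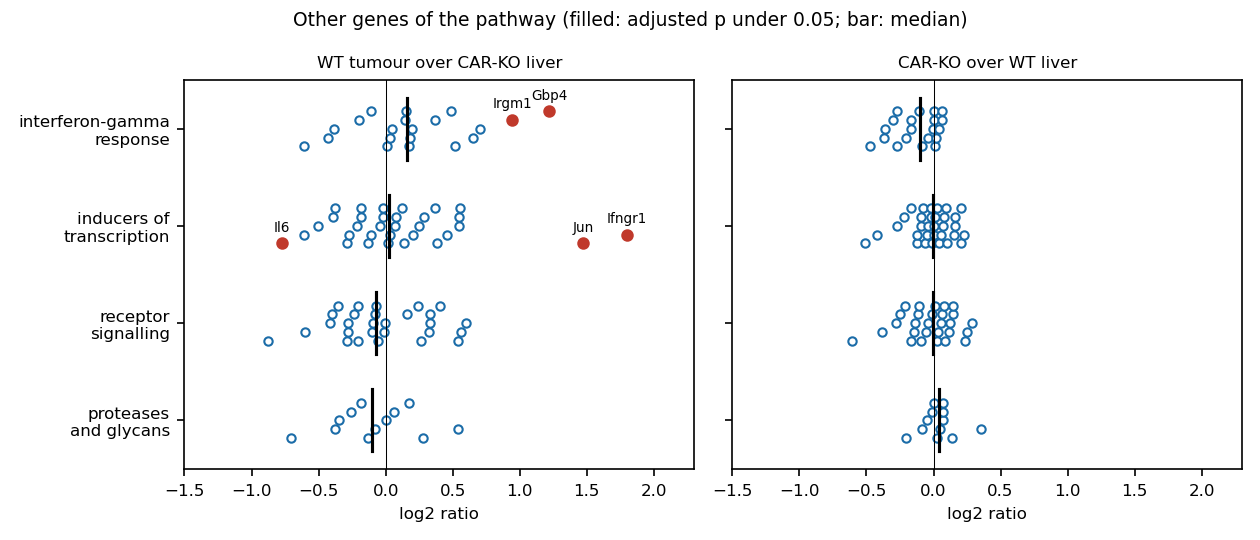
Fitted log2 ratio of each measured gene of 4 pathway lists (points; vertical spread only separates them), with the list median as a bar and called genes filled and named. In WT tumour over CAR-KO liver Gbp4, Irgm1, Jun and Ifngr1 lie to the right and Il6 to the left, and no gene is filled in CAR-KO over WT liver.

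Single markers of stromal, red, hepatocyte and bile duct cells were called in the same comparison, and no leukocyte or endothelial marker was. Of all probes tested, 2.53% were called higher and 0.839% lower. With lists this short, the calls do not set the cell types apart. None of 11 measured macrophage markers, 12 T and NK cell markers, 8 B cell markers, 8 neutrophil markers, 4 dendritic cell markers or 10 endothelial markers passed the test in WT tumour over CAR-KO liver, with list medians of 0.24, 0.02, 0.14, -0.08, -0.22 and -0.07. Summed signals of the macrophage markers were 4378 and 8912 in WT tumour and 3667 and 8671 in CAR-KO liver. For T and NK cells they were 2568 and 4231 in WT tumour and 2616 and 5257 in CAR-KO liver. Among 7 stellate cell and fibroblast markers, the proteoglycan gene Dcn fell (log2 ratio -1.34 ± 0.20, adjusted p = 0.0159), the list median was -0.35, and the summed signals were 1584 and 3152 in WT tumour and 2248 and 4168 in CAR-KO liver. Of 3 red cell markers Hba-a1 fell (-1.09 ± 0.16, adjusted p = 0.0138) and Slc4a1 had 0.19, with a list median of -0.60 and summed signals of 4849 and 13035 in WT tumour and 10072 and 27232 in CAR-KO liver. Ass1, 1 of 5 hepatocyte markers, fell (-1.47 ± 0.30, adjusted p = 0.0466), with a list median of -0.26. Krt19, 1 of 5 cholangiocyte markers, rose (1.13 ± 0.16, adjusted p = 0.0135), while the list median was 0.0048 and the other 4 had values from -0.23 to 0.03. Without either phenobarbital array, Dcn, Krt19 and Hba-a1 had adjusted p = 0.0679, 0.0597 and 0.0593, and without tumour array 2 Ass1 had 0.0611. With median centring Hba-a1 had 0.106. The part of these cell markers in the chemokine values was not tested.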

How the data were processed

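The members and the gene lists were chosen with earlier results of these data known. Mean signals and local background medians are deposited scanner intensity values without normalization, per the file headers, from Agilent Feature Extraction 7.1.1 (5 arrays) or 7.5.1 (the second tumour array). The submitters' processing notes name 7.5 for all 6. The ratio column that the authors deposited gives log10 of red against green after the software's processing. The value table holds the same numbers (largest difference 0). No genome build is given for the array data, and the build GRCm38.p6 belongs to the RefSeq tables.

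Background was corrected by normexp with an offset of 50, followed by loess within arrays, with control spots at weight 0 and outlier spots missing. The spots of a probe were averaged. Log2 ratios were computed from the deposited intensity values and turned so that the first-named RNA stands on top. They were fitted with limma 3.58.1 (R 4.3.3) on all 6 arrays with a dye effect, which left 2 residual and 5.48 prior degrees of freedom. The adjusted p is Benjamini-Hochberg over all 20744 probes tested, 2-sided, with a threshold of 0.05. The ± gives limma's SE, which draws on the residuals of all 6 arrays and the prior. It is therefore not the spread between the 2 arrays of a pair. The number of arrays limits the precision. Summaries used Python 3.11.15 and pandas 2.3.3. The fit was tested on simulated data.

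Symbols came from RefSeq through the accession for 55 members and through an older symbol for 2. Full values are given for called members and, per comparison, for up to 6 members with the largest positive and 6 with the largest negative ratio among those well above background in every channel of the pair with 1 sign. The values of 1 such member are not reported here, though it is counted among the members. Up to 4 called genes are named per list and comparison. Beside the main setting, 17 alternatives were run. The second tumour array came from another scanner, and this batch of 1 array cannot be told apart from that array.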

Additional observations from a re-analysis of the deposited data

How the results depend on the processing

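Each ratio pairs the RNAs of an array, but no pairing by animal was possible because the labels do not name animals. Of 140 alternative values for the counts and medians, 120 stayed close to the main value (a count within 1.5 times, a median within the SD of the pair's array medians). Of 681 for single named members, 636 kept both sign and call, 27 lost the call, 9 gained it and 9 changed sign. Many of the 681 could not change sign. Quantile normalization of A values, the dye and weight settings, and leaving out an array of another pair kept the direct estimates. Most named members were not called in the main setting either, so the 636 is no measure of robustness. In WT tumour over CAR-KO liver, where 4 members were called, the count was 2 without background subtraction, 0 with the software's processed signals, 11 with median centring, 0 with each pair fitted alone without a dye effect, 1 with array weights, and 1 to 21 when single arrays were left out. Of all probes, 3.36% were called in the main setting, 2.44% without background subtraction, 19.9% with median centring and 1.09% with array weights. With processed signals no probe on the array was called, and with each pair fitted alone 0.299% were. In WT tumour over WT liver the count was 0 to 5 when single arrays were left out, beside 0. In both tumour comparisons the highest count came from the fit without tumour array 2, which leaves 1 array of that pair. Many more of all probes were called in that fit too. The counts of 0 for knockout and phenobarbital were the same under all alternatives run. Median centring moved the members' median log2 ratio to -0.134 in WT tumour over CAR-KO liver, -0.144 in WT tumour over WT liver, -0.0105 in CAR-KO over WT liver and -0.0741 for phenobarbital. For phenobarbital it was -0.051 with processed signals and between -0.019 and 0.00983 when single arrays were left out. The cause was not tested. Across all alternatives the tumour over CAR-KO value lay between 0.81 and 2.33 for Cxcl10, 0.54 and 1.69 for Cxcl9, 0.56 and 1.48 for Ccl2, and -1.06 and -0.35 for Cxcl12.

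Cxcl12 in WT tumour over WT liver was 0.0197 with median centring. The other sign changes came from leaving out single arrays. In CAR-KO over WT liver Ccl5 ran from -0.124 to 0.405, Ccr1 from -0.0897 to 0.351, Ccr9 from -0.215 to 0.435 and Ccl3 from -0.626 to 0.00421. For phenobarbital Ccr6 ran from -0.102 to 0.39 and Cxcl5 from -0.178 to 0.0184. In WT tumour over CAR-KO liver Ccl6 ran from -0.269 to 1.17 and Ccr8 from -1.08 to 0.00365. Cxcl10 could not be fitted under the strict filter, since 2 of its 12 channels were not well above background.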
